A study of Mus musculus with 6 samples.

Results

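The integrins and the adaptors that tie them to actin were followed in B16F10, a mouse melanoma cell line, by RNA-seq. The genes were taken by symbol, namely every integrin alpha and beta subunit and a fixed list of talins, kindlins, the ILK, PINCH and parvin proteins, actin linkers, scaffolds and adhesion kinases. The table listed 47 of them among 14915 symbols, 18 alpha subunits, 8 beta subunits and 21 of 22 adaptors and kinases, with no row under TNS2. The 3 S127A libraries are labelled as B16F10 cells in which ZBTB5, a BTB and zinc finger transcription factor, carries alanine at a serine that can be phosphorylated. The 3 WT libraries are labelled as the same line with wild-type ZBTB5. The marker genes given below go against the label of the S127A libraries, so S127A and WT stand for those labels throughout. All 6 samples came from cells given TNFα under limited amino acids, and no untreated library was analysed here. Each difference is thus between treated libraries of different labels, and none is an effect of TNFα. The labels do not say how many clones the edited line stands for, nor that replicates were separate cultures. The p-values then reflect only how far these 6 samples vary, possibly for technical reasons.

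Integrins are receptors made of an alpha and a beta chain that bind extracellular matrix or ligands on other cells. Each beta chain pairs with a limited set of alpha chains, and the pair sets the ligand: some bind laminin, some collagen, some the RGD motif of fibronectin and vitronectin, and some serve mostly leukocytes. Inside the cell talins and kindlins bind the beta tail and switch the receptor on, the ILK, PINCH and parvin complex, vinculin, zyxin and tensins connect it to actin, and FAK, Src, paxillin and p130Cas relay the signal. In melanoma, integrins are known for their part in invasion and in homing to other tissues.

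Values are TPM, transcript abundance per gene length and per library total. Each change is given on the log2(TPM + 1) scale as S127A minus WT, a scale that understates low genes. Adjusted p-values come from limma over all 10348 genes with a mean of at least 1 TPM. ZBTB5 (chromosome 4, 44991242 to 45012412, minus strand, mm10) stood at 9.24, 8.24 and 9.21 TPM in S127A, against 15.88, 14.86 and 15.68 TPM in WT (change −0.74, adjusted p = 5.46e-07). A level cannot show the substitution itself. The libraries labelled S127A nearly lacked the melanocyte markers that were high in WT, so whether they are the stated line is in question. The summed level of 10 such markers was 27.8 to 33.3 TPM in S127A, against 15408 to 15705 TPM in WT, and SOX10 averaged 0.603 TPM in S127A and 341 TPM in WT. Of 10 fibroblast markers 6 were tested, of which 5 rose and 1 fell. They summed to 301 to 313 TPM in S127A, mostly COL1A2, against 16.15 to 17.2 TPM in WT, and LUM and THY1 were at 0 in S127A. The endothelial and epithelial markers summed to 63.3 to 64.3 TPM in S127A, nearly all of it KRT18, against 1.37 to 1.86 TPM in WT. The part of these markers in the results on adhesion genes was not tested. A difference of genotype and a difference of cells cannot be told apart in any comparison of these libraries. In bulk RNA, fewer cells of a type and less RNA per cell cannot be told apart.

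The integrin set differed between the S127A and WT libraries in both chains. S127A libraries held high ITGB7, ITGA3 and ITGB5 and lacked ITGB3, ITGA9 and ITGA1, whereas ITGB1 and ITGAV moved little. Of 35 members with a mean of at least 1 TPM, 18 rose and 12 fell, and 5 did not pass. That is 85.7% of those tested, against 90.0% of all tested genes (40.2% higher and 49.8% lower), so a call by itself says nothing about adhesion genes. Changes of at least 2-fold were found in 20 of the 35 (57.1%), 13 higher and 7 lower, against 35.4% of all tested genes (15.5% higher and 19.9% lower). Of the 35, 12 lay under 1 TPM in one of the groups and so had to differ to be tested. ITGA2, ITGA2B, ITGA7, ITGB2, ITGB4, ITGB7, LIMS2, PARVG and TNS1 were under 1 TPM in WT, and ITGA1, ITGA9 and ITGB3 in S127A. Among the 23 at 1 TPM or more in both groups, 18 passed (78.3%, against 88.5% of all such genes) and 10 changed at least 2-fold (43.5%, against 26.2%). These 10 were 5 of 8 integrin subunits and 5 of 15 adaptors and kinases. A change of at least 8-fold on the log scale was found for 6 of the 35, namely ITGB7, ITGA3, LIMS2, ITGA4, ITGA9 and ITGB3, beside 8.73% of all tested genes. Of these 6, ITGB7, LIMS2, ITGA9 and ITGB3 belong to the 12 that had to differ to be tested. ITGA3 and ITGA4 were at 1 TPM or more in both groups. The groups did not overlap for 30 of the 35, beside 90.2% of all tested genes. No test was made of these shares. The median change of all tested genes was −0.12. TMM factors brought it to −0.02 and quantile normalization to −0.0034, so small differences are also given relative to −0.12.

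**Figure D1:**
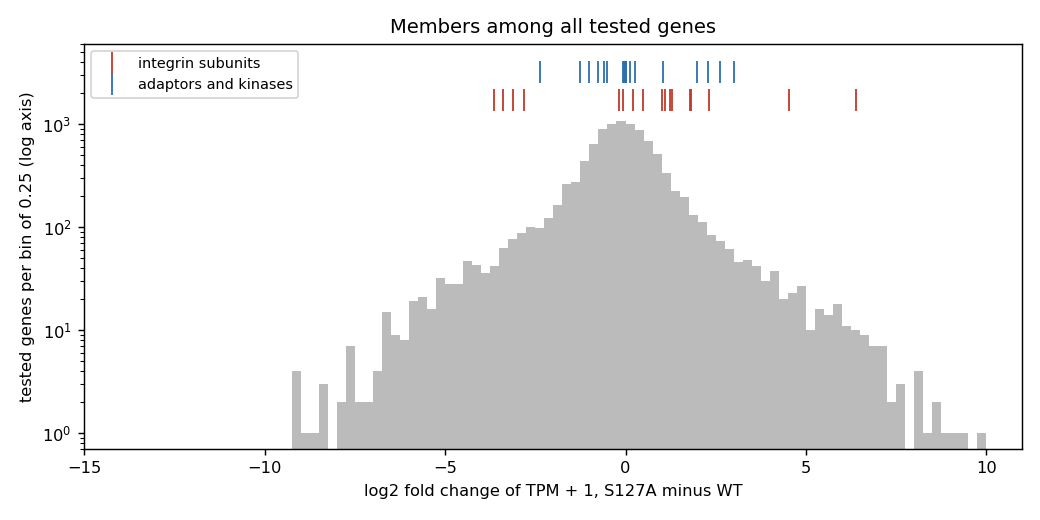
Histogram of log2 fold changes (TPM + 1, S127A minus WT) of all 10348 tested genes, with the number of genes on a log axis and ticks for the 17 integrin subunits (red) and the 18 adaptors and kinases (blue). The integrin ticks reach 6.40 for ITGB7 and −3.65 for ITGB3, while the adaptor ticks lie between −2.36 for ZYX and 3.0 for LIMS2.

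ITGB7, the beta chain of the gut-homing receptor alpha4 beta7 of lymphocytes, showed the largest change of the 35 (chromosome 15, 102215995 to 102231944, minus strand, mm10). It stood at 113.39, 118.88 and 119.10 TPM in S127A, against 0.49, 0.32 and 0.39 TPM in WT. The groups lay far apart, and the change was 6.40 (SE 0.0615, adjusted p = 1.87e-14 by limma). ITGB7 reached a mean of 1 TPM only through S127A, so it had to differ to be tested. ITGA4, the alpha chain that pairs with ITGB7 and with ITGB1, went the other way (chromosome 2, 79255426 to 79333123, plus strand). Its levels were 2.68, 2.38 and 2.33 TPM in S127A, against 30.62, 29.34 and 27.01 TPM in WT (change −3.11, SE 0.0687, adjusted p = 5.94e-12). ITGAE, the only other alpha chain known to join ITGB7, was listed at 0.26 to 0.40 TPM in S127A and 0.34 to 0.41 TPM in WT, too low to be tested. In the S127A libraries, then, ITGB7 mRNA averaged 117 ± 3.24 TPM while its partners averaged 2.46 ± 0.189 and 0.317 ± 0.0737 TPM (SD, n = 3). PTPRC, which defines leukocytes, was near 0 in these libraries, lying between 0.02 and 0.10 TPM in S127A and between 0 and 0.07 TPM in WT. Of 10 listed leukocyte markers 5 were tested, of which 2 rose, CD14 and LYZ, and 3 fell, CD68, CORO1A and LCP1. The 10 summed to 52.7 to 54.6 TPM in S127A, against 16.1 to 18.2 TPM in WT. CD14, which made up most of the S127A sum, averaged 45.1 TPM there and was listed at 0 in WT.

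The sequences before the starts of 2 pairs of partner chains are shown because their members parted: ITGB7 with ITGA4, which moved in opposite directions, and ITGB5 with ITGAV, of which the first rose and the second moved little. Each is the 250 bases before the RefSeq start (GRCm38.p6, the mm10 assembly), read 5′ to 3′ on the gene's strand. They are chr15:102231936-102232185 (minus) for ITGB7, chr2:79255176-79255425 (plus) for ITGA4, chr16:33829415-33829664 (plus) for ITGB5 and chr2:83724147-83724396 (plus) for ITGAV. Capitals mark matches, on either strand, to the AP-1 motif TGANTCA, the TEAD motif GGAATG, the E-boxes CATGTG and CACGTG, the GC box GGGCGG or the CArG box.
ITGB7: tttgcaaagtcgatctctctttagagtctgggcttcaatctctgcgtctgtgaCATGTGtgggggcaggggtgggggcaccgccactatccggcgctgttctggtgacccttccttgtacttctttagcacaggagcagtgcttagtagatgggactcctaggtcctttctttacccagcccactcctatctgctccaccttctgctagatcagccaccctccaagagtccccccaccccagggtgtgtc
ITGA4: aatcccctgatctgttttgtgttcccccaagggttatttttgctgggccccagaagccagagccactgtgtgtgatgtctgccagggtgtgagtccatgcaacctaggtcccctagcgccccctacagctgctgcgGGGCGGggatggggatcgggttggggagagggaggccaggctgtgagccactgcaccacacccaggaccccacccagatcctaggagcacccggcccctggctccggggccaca
ITGB5: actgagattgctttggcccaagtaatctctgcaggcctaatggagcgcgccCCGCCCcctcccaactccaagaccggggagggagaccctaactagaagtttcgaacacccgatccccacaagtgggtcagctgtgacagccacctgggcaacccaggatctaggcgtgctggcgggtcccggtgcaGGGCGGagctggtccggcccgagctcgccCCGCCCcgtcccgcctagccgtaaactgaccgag
ITGAV: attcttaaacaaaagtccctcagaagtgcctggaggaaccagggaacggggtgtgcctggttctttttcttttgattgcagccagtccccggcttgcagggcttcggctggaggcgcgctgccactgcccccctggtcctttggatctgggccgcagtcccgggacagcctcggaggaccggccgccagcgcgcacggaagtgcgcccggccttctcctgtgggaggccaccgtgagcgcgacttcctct
The ITGB7 window held 1 CATGTG, the core that MITF can bind, and the ITGA4 window 1 GC box. The ITGB5 window held 3 GC boxes, and none of the motifs was found in the ITGAV window. CATGTG occurred in 12.3% of 32851 promoter windows of this length and the GC box in 32.7%, so a match is a description and not a site. The other motifs occurred in 6.7% (AP-1), 12.6% (TEAD), 6.0% (CACGTG) and 1.5% (CArG) of windows. Of 33 members with a window in the RefSeq table, 18 held a GC box, 3 CATGTG, 3 a TEAD motif, 3 a CArG box, 2 CACGTG and 2 an AP-1 motif. A member was counted if any of its windows held the motif (40 windows in all). These counts of genes are thus not comparable with the shares of windows.

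The beta chains that pair with ITGAV diverged. ITGB5, which forms the vitronectin receptor alphaV beta5, rose to 100.64, 107.68 and 107.64 TPM in S127A, against 30.45, 28.69 and 29.79 TPM in WT (change 1.79, SE 0.0415, adjusted p = 8.71e-12). ITGB3, the partner in alphaV beta3 and in the platelet fibrinogen receptor, was nearly absent from S127A (chromosome 11, 104608000 to 104670476, plus strand). It stood at 0.15, 0.05 and 0.23 TPM in S127A, against 13.17, 14.75 and 12.26 TPM in WT (change −3.65, SE 0.0894, adjusted p = 1.38e-11). ITGB8, a beta chain that with ITGAV activates latent TGF-beta, was at 0.08 to 0.19 TPM in S127A and 1.67 to 1.95 TPM in WT. Its mean over the libraries lay just below 1 TPM, so it was tested only without the filter (change −1.32, adjusted p = 9.15e-06 by limma). Of the 12 members under the filter, ITGA8 and ITGAX also passed without it (−0.37 and 0.14), where 10516 of all 14915 genes passed. ITGA8 lay at 0.46 TPM or less and ITGAX at 0.13 TPM or less in every library, and at unknown depth such levels are uncertain. ITGB6, found mostly in epithelia, was listed at 0.03 TPM or less in every library. ITGAV itself stood at 73.92, 71.32 and 71.43 TPM in S127A, against 88.14, 79.04 and 81.07 TPM in WT. That is a fall of 0.19 on the log2 scale (SE 0.0438, adjusted p = 0.00163), with no overlap of the groups. Beside the median change of all tested genes, −0.12, the difference in ITGAV was −0.08, and with TMM factors it no longer passed (−0.10, adjusted p = 0.0513, where the 16 alternatives spanned 0.000603 to 0.0513).

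ITGB1, the common beta chain that joins the largest set of alpha chains, was the most abundant integrin in every library. It held 472.60, 446.09 and 454.09 TPM in S127A, against 404.20, 390.83 and 395.12 TPM in WT (change 0.21, SE 0.0304, adjusted p = 6.78e-05), with no overlap of the groups and a difference of 0.32 relative to the median of all genes. ITGB4, the laminin receptor chain of hemidesmosomes, averaged 2.96 ± 0.465 TPM in S127A and 0.68 ± 0.175 TPM in WT, a rise of 1.24. The leukocyte chain ITGB2 rose as well, to 5.09 ± 0.309 TPM in S127A, against 0.23 ± 0.0624 TPM in WT (change 2.31, adjusted p = 2.25e-10). Its 4 alpha partners, ITGAL, ITGAM, ITGAX and ITGAD, stayed at 0.27 TPM or less in all 6 libraries. The exons of ITGAM share 68.7% of their bases with the gene model Gm49368 on the same strand, which makes its level uncertain. ITGAD was listed at 0 in the WT libraries.

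**Figure D2:**
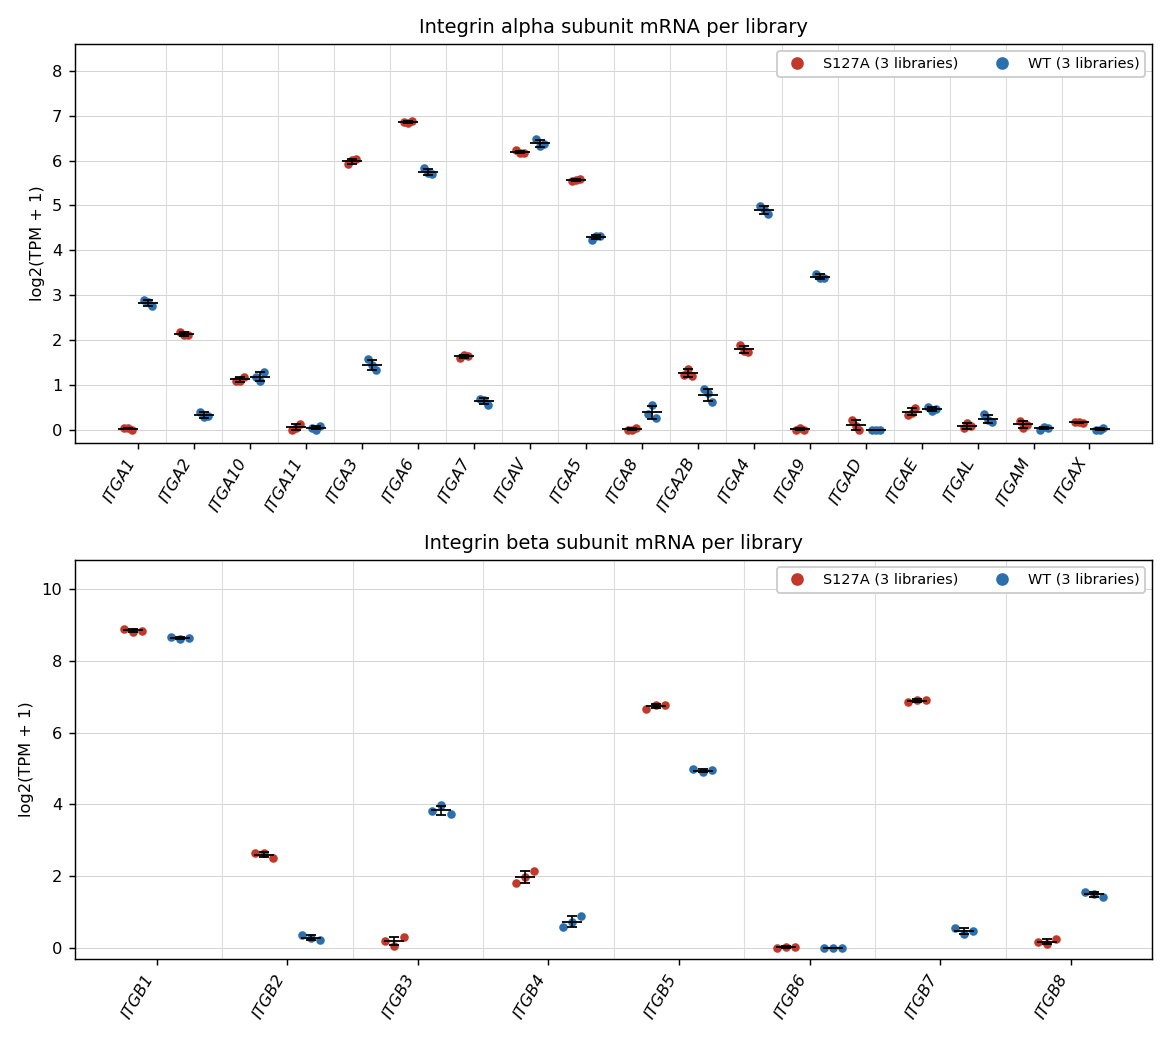
Expression of the 18 alpha subunits (top) and 8 beta subunits (bottom) as log2(TPM + 1), 3 S127A libraries (red) and 3 WT libraries (blue) per gene, bars giving mean and SD. ITGB7 and ITGA3 stand high in S127A and near the floor in WT, ITGB3, ITGA9 and ITGA1 the reverse, and ITGB1 and ITGAV are high in all 6 libraries.

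The 3 laminin-binding alpha chains, ITGA3, ITGA6 and ITGA7, rose, where 40.2% of all tested genes did. ITGA7, like ITGB7 and the others named above as low in WT, was tested only through its level in S127A. ITGA3, which binds laminins of basement membranes (chromosome 11, 95044474 to 95076801, minus strand), reached 59.39, 63.25 and 64.32 TPM in S127A, against 1.96, 1.70 and 1.51 TPM in WT. The change was 4.54 (SE 0.0699, adjusted p = 3.67e-13). ITGA6, a partner of ITGB1 and ITGB4, was at 114.89, 112.53 and 116.12 TPM in S127A, against 56.01, 51.62 and 51.36 TPM in WT (change 1.10, SE 0.0403, adjusted p = 4.14e-10). ITGA7, the muscle laminin receptor, averaged 2.10 ± 0.085 TPM in S127A and 0.55 ± 0.07 TPM in WT, a rise of 1.0, just under the 2-fold mark. The summed level of the 3 genes was 176 to 183 TPM in S127A, against 53.3 to 58.6 TPM in WT, and the groups did not overlap.

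Among the other RGD-binding alpha chains, ITGA5, the fibronectin receptor chain, rose to 45.76, 46.56 and 46.99 TPM in S127A, against 17.81, 19.02 and 19.00 TPM in WT (change 1.27, SE 0.044, adjusted p = 2.46e-10). The platelet chain ITGA2B averaged 1.39 ± 0.149 TPM in S127A and 0.717 ± 0.163 TPM in WT (change 0.48, adjusted p = 0.000581). Of 7 listed platelet markers 6 lay at or below 1.32 TPM in all 6 libraries and SELP rose, and their sum was 12.1 to 14.1 TPM in S127A, against 1.10 to 1.83 TPM in WT. ITGB3, the sole partner of ITGA2B, was nearly absent from S127A. ITGA8, a chain of smooth muscle and kidney, was at 0.46 TPM or less in every library and so lay under the filter.

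Among the collagen-binding alpha chains ITGA1 fell and ITGA2 rose, both at low levels. ITGA1, a collagen IV receptor chain, was at 0.02, 0.02 and 0 TPM in S127A, against 6.43, 6.13 and 5.79 TPM in WT (change −2.81, SE 0.0735, adjusted p = 2.37e-11). ITGA2, the collagen I receptor chain, was at 3.53, 3.30 and 3.29 TPM in S127A, against 0.31, 0.21 and 0.24 TPM in WT (change 1.80, SE 0.0757, adjusted p = 1.32e-09). The genes lie close together on chromosome 13, both on the minus strand, ITGA2 from 114833081 to 114932100 and ITGA1 from 114953096 to 115101964 (mm10). So genes in one stretch of the chromosome changed in opposite directions. ITGA10, a cartilage chain, averaged 1.17 ± 0.0839 TPM in S127A and 1.27 ± 0.15 TPM in WT (difference −0.06, 95% interval −0.25 to 0.12, adjusted p = 0.472). Its exons share 33.5% of their bases with the gene model Gm42957 on the same strand, which makes its level uncertain, and with quantile normalization the difference turned to 0.41 (adjusted p = 0.000742, where 15 alternatives spanned 0.000742 to 0.912). ITGA11 was at 0.09 TPM or less throughout.

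ITGA9, which binds tenascin C and VCAM1 and forms a subfamily with ITGA4, was at 0, 0.02 and 0 TPM in S127A, against 10.10, 9.37 and 9.43 TPM in WT. The change was −3.40 (SE 0.0702, adjusted p = 3.51e-12). Like ITGA4 it was high in WT libraries and low in S127A libraries, with no overlap. Reads of ITGA4 may be shared with Cerkl on the opposite strand, which covers 8.0% of its exonic bases, since no source used here gives the strand setting. The 5 leukocyte alpha chains, ITGAD, ITGAE, ITGAL, ITGAM and ITGAX, were at 0.41 TPM or less in every library, and none was tested.

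Shares within a library do not depend on a factor that scales the whole library. Of the summed alpha chain TPM, ITGAV took 23.55% ± 0.595 in S127A and 40.4% ± 0.785 in WT (SD, n = 3). ITGA6 took 37.3% ± 0.376 in S127A and 25.9% ± 0.117 in WT, and so led the alpha chains in S127A, where ITGAV led them in WT. The share of ITGA3 was 20.3% ± 0.751 in S127A and 0.841% ± 0.076 in WT, that of ITGA4 0.803% ± 0.0659 in S127A and 14.2% ± 0.544 in WT. Among beta chains ITGB1 took 66.5% ± 1.37 in S127A and 89.6% ± 0.19 in WT. ITGB7 took 17.0% ± 0.608 in S127A and 0.0901% ± 0.0178 in WT, and ITGB5 15.3% ± 0.714 in S127A and 6.69% ± 0.115 in WT. For each of these shares the groups did not overlap, and a two-sided exact permutation test gave p = 0.1, the smallest that 3 against 3 allows (adjusted p = 0.119 over the 38 shares compared). Summed alpha chain mRNA was 307 ± 2.78 TPM in S127A and 205 ± 9.16 TPM in WT, and summed beta chain mRNA was 688 ± 6.86 TPM in S127A and 443 ± 7.24 TPM in WT.

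**Figure D3:**
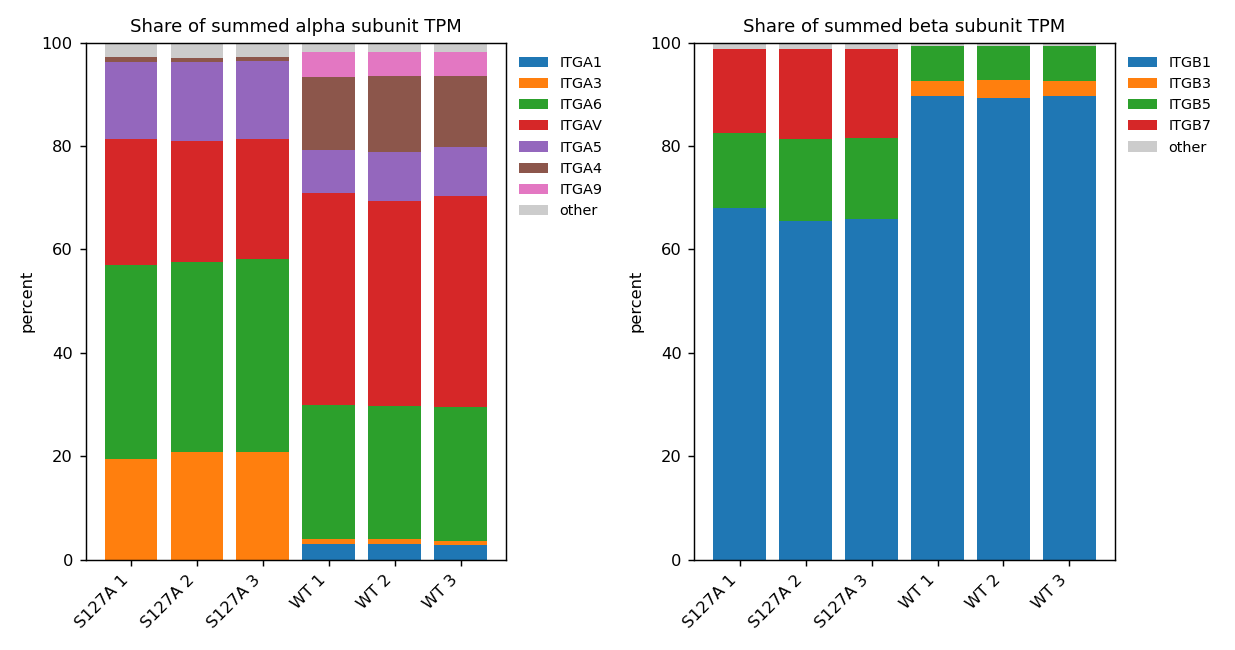
Percent of the summed alpha subunit TPM (left) and beta subunit TPM (right) taken by each subunit in each library, S127A 1 to 3 and then WT 1 to 3, with subunits under 2% in both groups pooled as other. ITGA3 and ITGB7 take 20.3% and 17.0% in S127A and under 1% in WT, where ITGA4 takes 14.2% of the alpha total.

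Of 24 heterodimers known in mammals, 11 had both chains at a mean of 1 TPM or more in S127A and 11 in WT, and 7 did so in both groups. These 7 were alpha3, alpha4, alpha5, alpha6, alpha10 and alphaV with beta1, and alphaV with beta5. The pairs past that level in S127A and not in WT were alpha2 beta1, alpha7 beta1, alpha6 beta4 and alpha4 beta7. The pairs past it in WT and not in S127A were alpha1 beta1, alpha9 beta1, alphaV beta3 and alphaV beta8. For alpha4 beta7 the scarcer chain was ITGA4 at 2.46 TPM in S127A and ITGB7 at 0.40 TPM in WT. For alphaV beta5 it was ITGAV at 72.2 TPM in S127A and ITGB5 at 29.6 TPM in WT. These are levels of mRNA, and receptors at the surface were not measured.

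Of the adaptors that switch integrins on, FERMT2 and TLN2 fell. FERMT2, the broadly expressed kindlin, fell to 44.76, 44.63 and 43.49 TPM in S127A, against 108.51, 103.15 and 109.47 TPM in WT (change −1.25, SE 0.0364, adjusted p = 5.63e-11). TLN2, a talin of muscle and brain, fell to 11.39, 12.10 and 11.92 TPM in S127A, against 24.51, 25.56 and 24.29 TPM in WT (change −1.01, SE 0.0503, adjusted p = 5.67e-09). TLN1, the main talin, was at 184.25, 195.93 and 196.56 TPM in S127A, against 203.80, 203.11 and 203.83 TPM in WT. Its difference of −0.08 passed narrowly (adjusted p = 0.032) and turned to 0.01 with TMM factors (adjusted p = 0.679) and to 0.07 with quantile normalization (adjusted p = 0.0757), within a span of 0.0299 to 0.679 among the 16 alternatives. Relative to the median of all genes TLN1 stood 0.03 higher. The call was also lost without WT replicate 1, 2 or 3 and without S127A replicate 1 (adjusted p from 0.0613 to 0.0912). It was lost too with one total for all libraries (−0.03, adjusted p = 0.411) and without the mean-variance trend (adjusted p = 0.0857). The share of TLN2 in talin TPM was 5.785% ± 0.0587 in S127A and 10.85% ± 0.284 in WT. FERMT3, the kindlin of blood cells, lay between 0.47 and 1.12 TPM and FERMT1, that of epithelia, at 0.06 TPM or less, and neither was tested.

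**Figure D4:**
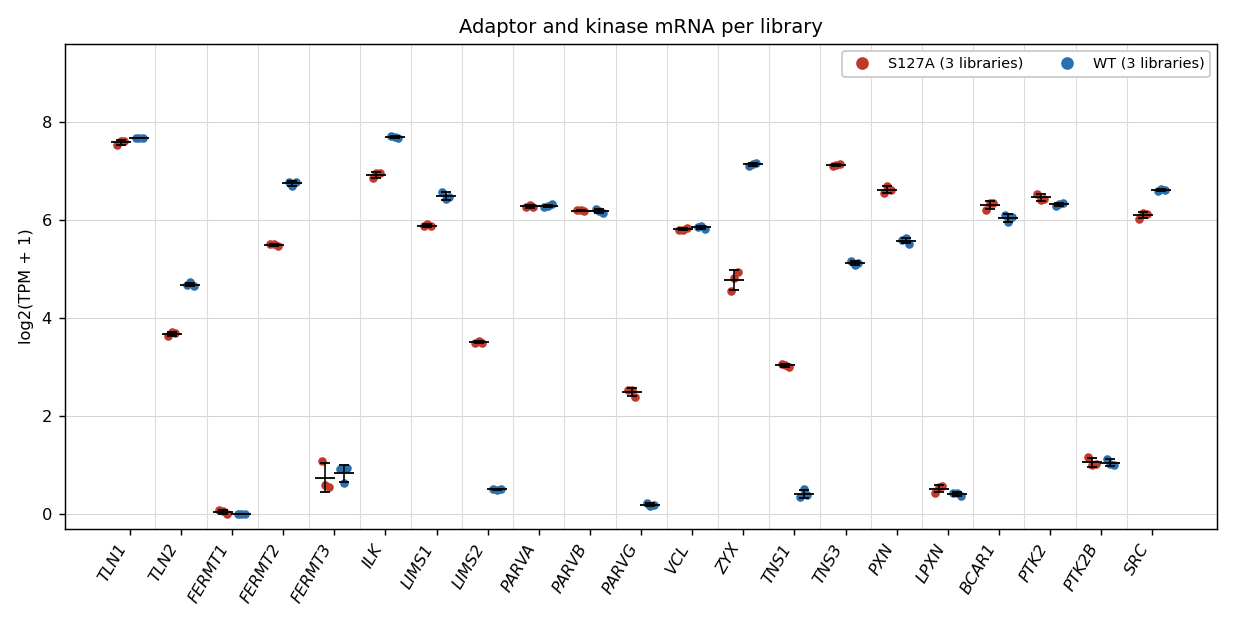
Expression of the 21 adaptors and kinases as log2(TPM + 1), 3 S127A libraries (red) and 3 WT libraries (blue) per gene, bars giving mean and SD. ZYX and FERMT2 are lower in S127A and TNS3 and LIMS2 higher, while the points of PARVA, PARVB and VCL overlap between the groups.

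In the ILK, PINCH and parvin complex ILK and LIMS1 fell, and the minor paralogs LIMS2 and PARVG rose. ILK, the pseudokinase at its centre, was at 115.53, 124.74 and 123.18 TPM in S127A, against 210.25, 208.38 and 203.71 TPM in WT (change −0.77, SE 0.0355, adjusted p = 2.84e-09). That level is uncertain, since Taf10 on the opposite strand covers 76.7% of the exonic bases of ILK and strand use is not stated. LIMS1, or PINCH1, fell to 58.5 ± 1.0 TPM in S127A, against 89.3 ± 4.74 TPM in WT (change −0.60, adjusted p = 1.16e-07). LIMS2, or PINCH2, was at 10.33, 10.57 and 10.29 TPM in S127A, against 0.42, 0.41 and 0.43 TPM in WT (change 3.0, SE 0.0652, adjusted p = 5.22e-12). It made up 15.1% ± 0.056 of PINCH TPM in S127A and 0.469% ± 0.0223 in WT. PARVG, the parvin of blood cells, rose to 4.63 ± 0.33 TPM in S127A, against 0.147 ± 0.0306 TPM in WT (change 2.29, adjusted p = 2.14e-10). The parvins of most tissues overlapped between the groups. PARVA averaged 77.0 ± 1.49 TPM in S127A and 77.7 ± 1.31 TPM in WT, and PARVB 72.5 ± 0.686 TPM in S127A and 72.0 ± 2.08 TPM in WT. Neither passed, with 95% intervals of −0.09 to 0.06 and −0.07 to 0.09. Beside the median of all genes they stood 0.10 and 0.13 higher, and with TMM factors both passed (0.08, adjusted p = 0.0367, and 0.11, adjusted p = 0.0135) within spans of 0.0367 to 0.983 for PARVA and 0.0135 to 0.932 for PARVB among the 16 alternatives. PARVB (84232043 to 84315688) and PARVG (84324026 to 84342978) lie beside each other on the plus strand of chromosome 15, and PARVG alone of this pair passed on TPM as deposited.

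Actin linkers split. ZYX, a sensor of tension that gathers Ena and VASP proteins at stress fibres (chromosome 6, 42349630 to 42360213, plus strand), was at 22.63, 27.43 and 29.87 TPM in S127A, against 137.15, 141.21 and 143.22 TPM in WT. The change was −2.36 (SE 0.0795, adjusted p = 1.99e-10), the largest fall among the adaptors. TNS3, a tensin that binds beta tails and actin (chromosome 11, 8431652 to 8664535, minus strand), was at 136.46, 138.27 and 140.10 TPM in S127A, against 34.93, 33.10 and 33.88 TPM in WT (change 1.99, SE 0.0349, adjusted p = 9.55e-13). TNS1, the tensin of fibrillar adhesions, rose to 7.34, 7.32 and 6.99 TPM in S127A, against 0.27, 0.42 and 0.32 TPM in WT (change 2.62, adjusted p = 4.68e-11). VCL, vinculin, which joins talin to actin, averaged 55.6 ± 1.03 TPM in S127A and 56.8 ± 1.22 TPM in WT (difference −0.03, 95% interval −0.11 to 0.05, adjusted p = 0.411). Its sign turned with TMM factors (0.06, adjusted p = 0.113, from a span of 0.113 to 0.694 among the alternatives), and its exons share 25.5% of their bases with Ap3m1 on the opposite strand. So ZYX and VCL, which meet at the same adhesions, did not move alike: the intervals of their changes lie apart.

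Of the scaffolds, PXN, paxillin, rose to 93.02, 102.90 and 97.68 TPM in S127A, against 47.49, 48.82 and 44.99 TPM in WT (change 1.04, SE 0.0462, adjusted p = 2.11e-09). BCAR1, or p130Cas, rose slightly, to 78.3 ± 4.16 TPM in S127A, against 65.3 ± 3.49 TPM in WT (change 0.26, SE 0.0503, adjusted p = 0.000537). LPXN, the leukocyte relative of paxillin, was at 0.49 TPM or less in every library. Of the kinases, SRC fell to 64.45, 69.95 and 68.60 TPM in S127A, against 96.21, 98.82 and 97.48 TPM in WT (change −0.52, SE 0.0381, adjusted p = 1.61e-07). PTK2, which encodes FAK, was at 92.32, 84.76 and 85.87 TPM in S127A, against 77.83, 79.44 and 81.30 TPM in WT, a small rise of 0.14 (adjusted p = 0.00727) with no overlap of the groups. Relative to the median of all genes BCAR1 stood 0.38 and PTK2 0.25 higher. PTK2B, its relative in blood and brain, averaged 1.09 ± 0.131 TPM in S127A and 1.08 ± 0.0964 TPM in WT and did not pass (adjusted p = 0.946). With quantile normalization it did (0.49, adjusted p = 0.000219, the lowest of a span that reached 0.971).

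**Figure D5:**
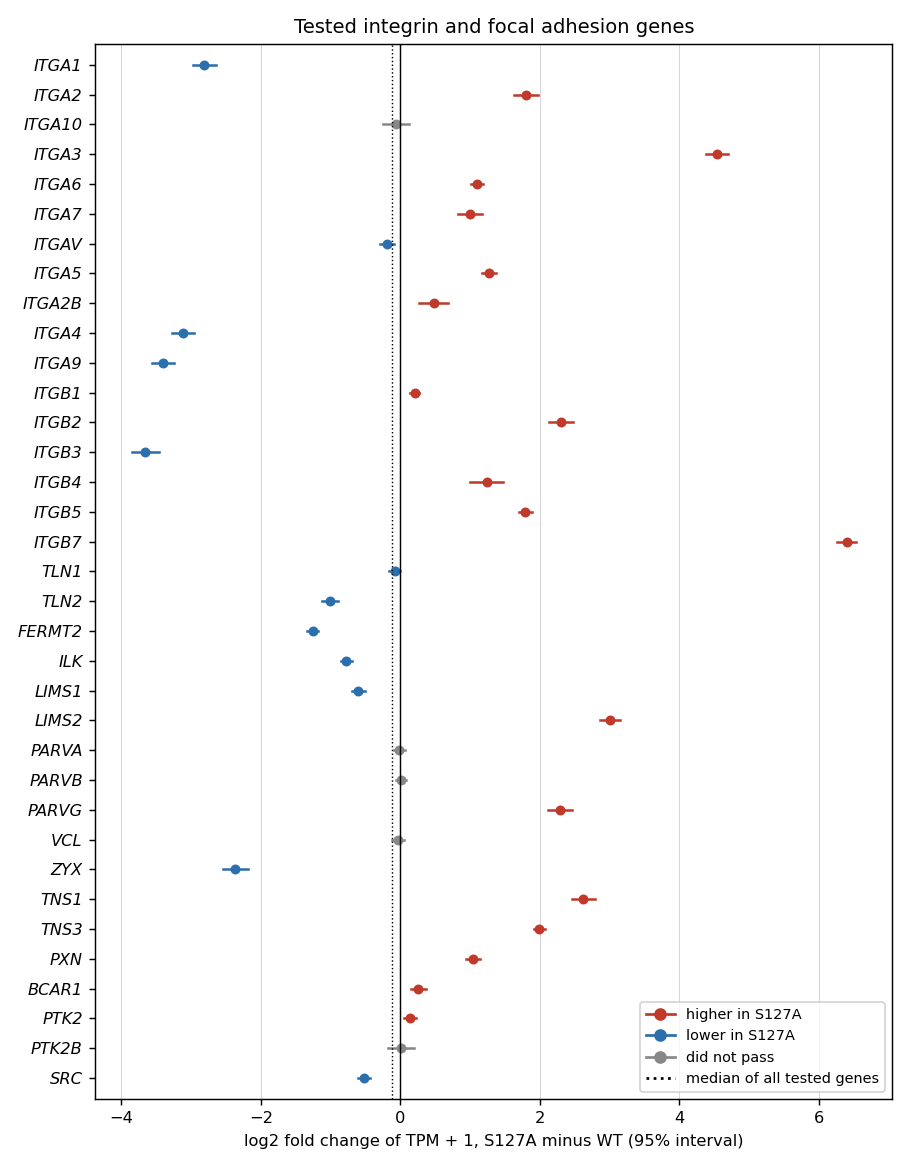
Log2 fold change of TPM + 1 (S127A minus WT) with its 95% interval for the 35 tested members, ordered by role from collagen-binding alpha chains to kinases. Red points rose, blue points fell and grey points did not pass, and the dotted line is the median of all tested genes, −0.12.

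The genes that work with these members were read from 4 further lists. Of 33 tested partners in focal adhesions, 19 rose and 13 fell, with a median change of 0.23. That is 97.0% called, against 90.0% of all tested genes, and 42.4% changed at least 2-fold, against 35.4%. Among the 28 at 1 TPM or more in both groups, 9 changed at least 2-fold (32.1%, against 26.2% of all such genes). CAV1, the caveolae protein, averaged 434 ± 2.6 TPM in S127A and 3.47 ± 0.295 TPM in WT, and the actin cross-linker FLNC (112 ± 4.0 TPM in S127A and 0.437 ± 0.0751 TPM in WT) also rose, as did the LIM protein FHL2 (change 5.28). ENAH, an actin polymerase that ZYX recruits, fell to 8.0 ± 0.129 TPM in S127A, against 59.1 ± 2.06 TPM in WT, beside CSRP1 and SORBS3 (changes −2.09 and −1.57). Of 26 tested regulators of integrin activity and membrane partners, 15 rose and 11 fell (median 0.68). All tested genes were called at 90.0%, with 40.2% higher and 49.8% lower. At 1 TPM or more in both groups 11 of 23 changed at least 2-fold (47.8%, against 26.2% of all such genes). PLAUR, the urokinase receptor, which binds integrins, averaged 443 ± 13.2 TPM in S127A and 23.0 ± 2.57 TPM in WT. The integrin-activating GTPase RAP1B averaged 509 ± 20.3 TPM in S127A and 126 ± 3.41 TPM in WT. CD9 and CD47 rose by 1.84 and 2.36, and CD81, CD151 and SDC1 fell (changes −2.70, −1.05 and −3.39). KANK4, which links talin to microtubules, fell as well, listed at 0 in the S127A libraries and at 8.39 ± 0.507 TPM in WT.

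Of 24 tested ligands of integrins, 20 rose and 4 fell. Of all tested genes 90.0% were called, 40.2% higher and 49.8% lower. Of the 24, 10 lay under 1 TPM in one of the groups and so had to differ to be tested. Among the other 14, 11 changed at least 2-fold (78.6%, against 26.2% of all such genes). FN1, the fibronectin that ITGA5 binds, averaged 538 ± 13.6 TPM in S127A and 31.7 ± 0.942 TPM in WT. LAMB1, a chain of the laminins that ITGA3 and ITGA6 bind, averaged 216 ± 3.83 TPM in S127A and 11.8 ± 0.234 TPM in WT, and LTBP1 and COL1A2 rose by 6.57 and 6.84. LAMA4, a laminin chain of vessel walls, was at 0.06 TPM in each S127A library, against 47.5 ± 0.72 TPM in WT, and LAMB2, TGFB3 and ICAM2 fell by 0.80, 1.15 and 1.75. Of 29 tested kinases, phosphatases and GTPases around FAK and Src, 12 rose and 14 fell (median −0.05). That is 89.7% called, against 90.0% of all tested genes, and 31.0% changed at least 2-fold, against 35.4%. Among the 27 at 1 TPM or more in both groups, 8 changed at least 2-fold (29.6%, against 26.2% of all such genes). FYN, a relative of SRC, fell to 16.4 ± 0.734 TPM in S127A, against 59.3 ± 1.05 TPM in WT, and CSK, the kinase that restrains SRC, to 58.4 ± 2.7 TPM in S127A, against 146 ± 0.85 TPM in WT. RHOB and GRB2 fell by 1.58 and 1.05, and RHOC, PAK1, PTPN12 and ASAP1 rose by 1.53, 3.26, 1.04 and 0.87. The changes in the lists passed by limma, with the largest adjusted p of those named 5.33e-07 (ICAM2). The fibroblast markers COL1A2 and COL1A1, both also on the ligand list, averaged 275 and 10.7 TPM in S127A. Their part in these counts was not tested, and COL3A1, on both lists too, lay under the filter.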

How the data were processed

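RNA-seq profiled 3 S127A and 3 WT libraries, grouped by sample title. RNA was isolated with TRIzol and copied into cDNA from random hexamers, per the labels' protocols. The deposited values are TPM by gene symbol, per the file headers, on build mm10 by the submitters' processing notes. For the aligner, quantifier, annotation and strandedness the entry is: not given in the sources used here. Listed symbols summed to 830745 to 833332 TPM in S127A and 862949 to 864529 TPM in WT. TPM keeps no depth, so depth is unknown and errors come from replicate spread alone.

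For genes averaging at least 1 TPM over the 6 libraries, limma 3.58.1 (R 4.3.3) was run on log2 values after adding a pseudocount of 1 (mean-variance trend, genotype only, two-sided, Benjamini-Hochberg over 10348 genes, threshold 0.05). The fit was tested on simulated data in which few genes changed, all upward. That setting is unlike these data, where 90.0% of tested genes were called in both directions. Shares were compared by exact permutation (scipy 1.17.1). Positions and overlaps come from GENCODE for mm10 and promoter windows from RefSeq (GRCm38.p6). Each member was named or counted, and for each further list the 4 smallest adjusted p in each direction were named, apart from a few not reported here. Members and lists were chosen with earlier results of these data known. Alternatives were 2 pseudocounts, 2 filters, 3 scalings (TMM factors, computed on the TPM by the standard trimmed mean of M-values, quantile normalization and a common total), 2 variance models, a replicate block and each library left out.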

Additional observations from a re-analysis of the deposited data

How the results depend on the processing

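Under 16 alternatives the members gave 547 values, of which 523 kept their direction and their side of the threshold. Of the 35 members, 28 never changed either where they were tested. The other 7 were ITGA10, ITGAV, TLN1, PARVA, PARVB, VCL and PTK2B. ITGA2B lay under the filter in some alternatives and was tested in only 13 of the 16, and several other low members in 15. With TMM factors the difference turned to 0.0149 for TLN1, 0.084 for PARVA and 0.0645 for VCL. With quantile normalization it turned to 0.41 for ITGA10, 0.07 for TLN1, 0.0637 for PARVA and 0.0474 for VCL, and with one total for all libraries to 0.041 for PARVA and 0.0217 for VCL. Without each library in turn it ran from −0.0284 to 0.0009 for PARVA, −0.012 to 0.0288 for PARVB and −0.0448 to 0.0438 for PTK2B. At a mean of at least 5 TPM, where fewer members are tested, 11 rose in place of 18, and 13 changed at least 2-fold in place of 20, 8 of them higher in place of 13. With a pseudocount of 5, 8 rose at least 2-fold. Without each library in turn 29 to 31 members passed, and 20 or 21 changed at least 2-fold. Over all genes 9123 to 9211 passed, of 10324 to 10340 tested. The filter was applied anew each time, so 35 or 36 members were tested, and not always the same ones.

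Same-numbered libraries deviated together with r of 0.117, 0.0174 and 0.0279, and S127A replicates 2 and 3 correlated best with other numbers. Such small values cannot show whether same-numbered libraries shared a batch, which the labels do not say. With a replicate block 9339 genes passed in place of 9315, and 30 members either way. The depth of the TPM is unknown, so low members could not be given a counting error. The cause of each change was not tested.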
